A study of Mus musculus with 6 samples.

Results

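The collagen gene family was taken as every gene of the deposited table whose symbol reads *Col*, a type number, the letter a and a chain number, which gave 44 genes of 52089 symbols. The value of a gene was the mean over its transcript accessions of RPKM, read number divided by transcript length in kilobases and by library depth, and the 44 genes had 316 accessions. The libraries come from primary brite adipocytes, thermogenic fat cells that arise within white adipose tissue, grown from the stromal-vascular fraction of inguinal white adipose tissue of male 129SvEv mice aged 5 to 6 weeks. All cultures were induced for 2 days, differentiated for 1 day with rosiglitazone, an agonist of the adipogenic nuclear receptor PPARγ, and reverse transfected with an LNA Gapmer antisense oligonucleotide at 50 nM. In 3 libraries (*Ctcflos* KD) the oligonucleotide, ASO1, was directed against transcript 1 of the long noncoding RNA *Ctcflos*, and in the 3 control libraries it was nontargeting. Total RNA was taken 24 h later. With 1 oligonucleotide against *Ctcflos* in these libraries, loss of the transcript and other effects of that oligonucleotide cannot be told apart, and the labels do not say that the replicates were separate cultures, so that the p-values measure the spread between these libraries.

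Collagens are extracellular proteins in which 3 chains wind into a triple helix. Fibrillar collagens (types I, III and V among them) build the interstitial fibers, type IV builds the network of basement membranes, type VI forms beaded filaments, the multiplexins XV and XVIII sit in or beside basement membranes, and FACIT collagens decorate the surface of fibrils. A fat cell is enclosed by a basement membrane, and adipogenesis is known as a passage from a fibrillar, fibroblast-like matrix to one rich in types IV, VI, XV and XVIII. Collagen chains are hydroxylated and folded in the endoplasmic reticulum, carried out in enlarged COPII vesicles, trimmed by proteinases and cross-linked by lysyl oxidases.

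*Ctcflos*, listed as *1300015D01Rik*, was at 0.0969, 0.0705 and 0.210 RPKM in the *Ctcflos* KD libraries 1 to 3 and at 0.748, 0.751 and 0.840 RPKM in the controls, or 16.1% of the control mean. Its mean was under the filter of 1 RPKM, and in limma without that filter its difference was −0.66 on the log2(RPKM + 1) scale (adjusted p = 0.0449). With any 1 library other than *Ctcflos* KD replicate 3 left out, the adjusted p was between 0.0992 and 0.169 and the difference stayed between −0.68 and −0.63. The depth recovered from low values ranged from 60.8 to 79.2 mio mapped reads per library. Adipocyte markers were abundant in all libraries, their sum ranging from 4330 to 5756 RPKM in *Ctcflos* KD and from 5929 to 6578 RPKM in controls. Of the 5 markers 0 were called, with a median difference of −0.35 on the log2(RPKM + 1) scale. *Fabp4*, *Adipoq*, *Plin1* and *Lpl* were lower in every *Ctcflos* KD library without overlap, as were 21.9% of all genes, and *Cidec* overlapped. Of 6 progenitor and fibroblast markers past the filter, 1 was called, beside 12.4% of all genes called lower. This was *Pdgfra*, which was lower (13.1 ± 0.922 against 21.8 ± 2.57 RPKM, adjusted p = 0.0104). The other 5 overlapped between groups and were not called, *Pdgfrb* (0.17), *Lum* (0.07), *Thy1* (−0.06), *Dcn* (−0.15) and *Ly6a* (−0.36 on the log2(RPKM + 1) scale). *Cd68* was higher (3.24 ± 0.995 against 1.08 ± 0.727 RPKM, adjusted p = 0.023). The macrophage gene *Csf1r*, under the filter, was at 1.31, 1.48 and 1.10 RPKM against 0.269, 0.833 and 0.438 RPKM without overlap. The leukocyte gene *Ptprc* went the other way, also without overlap and at far lower values (0.00225, 0 and 0.00373 RPKM against 0.0139, 0.0486 and 0.0354 RPKM). The 3 macrophage and leukocyte markers in the table summed to 3.26 to 5.43 RPKM in *Ctcflos* KD and 0.94 to 2.80 RPKM in controls. Endothelial, epithelial and mesothelial lists summed to at most 1.35, 0.416 and 0.114 RPKM, and 4 smooth muscle and pericyte markers summed to 50.8 to 113 RPKM in *Ctcflos* KD and 76.3 to 198 RPKM in controls. In bulk RNA, fewer cells of a type and less RNA per cell cannot be told apart, and the part of these marker differences in the collagen values was not tested.

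A subset of collagen genes was lower after *Ctcflos* KD. Of 44 genes, 15 had a mean of at least 1 RPKM and entered the test (limma-trend on log2(RPKM + 1), adjusted over 11701 genes). 6 of the 15 fell, *Col5a3*, *Col5a1*, *Col4a2*, *Col15a1*, *Col18a1* and *Col6a1*, and 0 rose. Among all genes tested, 24% were called, 12.4% lower and 11.5% higher. The calls depended on the filter and on single controls. Without the filter on low values 0 collagen genes were called, as were 0.584% of all genes. With genes at 0 in every library left out of that fit the count was 4, when 4.71% of all genes were called. Without control replicate 1 or 3 it was 1, when 3.6% and 3.16% of all genes were called. The *Ctcflos* KD libraries lay below all controls, without overlap, in 11 of the 15, against 21.9% of all genes, and above them in 0, against 22.9%. The difference was negative in 13 of 15, with a median of −0.42 on the log2(RPKM + 1) scale, against a median of 0.03 for all genes tested. Besides the 6 called genes, 5 were lower without overlap at an adjusted p between 0.05 and 0.1, a range that held 4.66% of all genes as lower. Summed over the 44 genes, the collagens came to 783, 737 and 753 RPKM in *Ctcflos* KD libraries 1 to 3 and to 1009, 964 and 1029 RPKM in the controls (757.5 ± 23.7 against 1001 ± 33.2, mean ± SD, n = 3). Every *Ctcflos* KD sum was thus below every control sum.

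**Figure D1:**
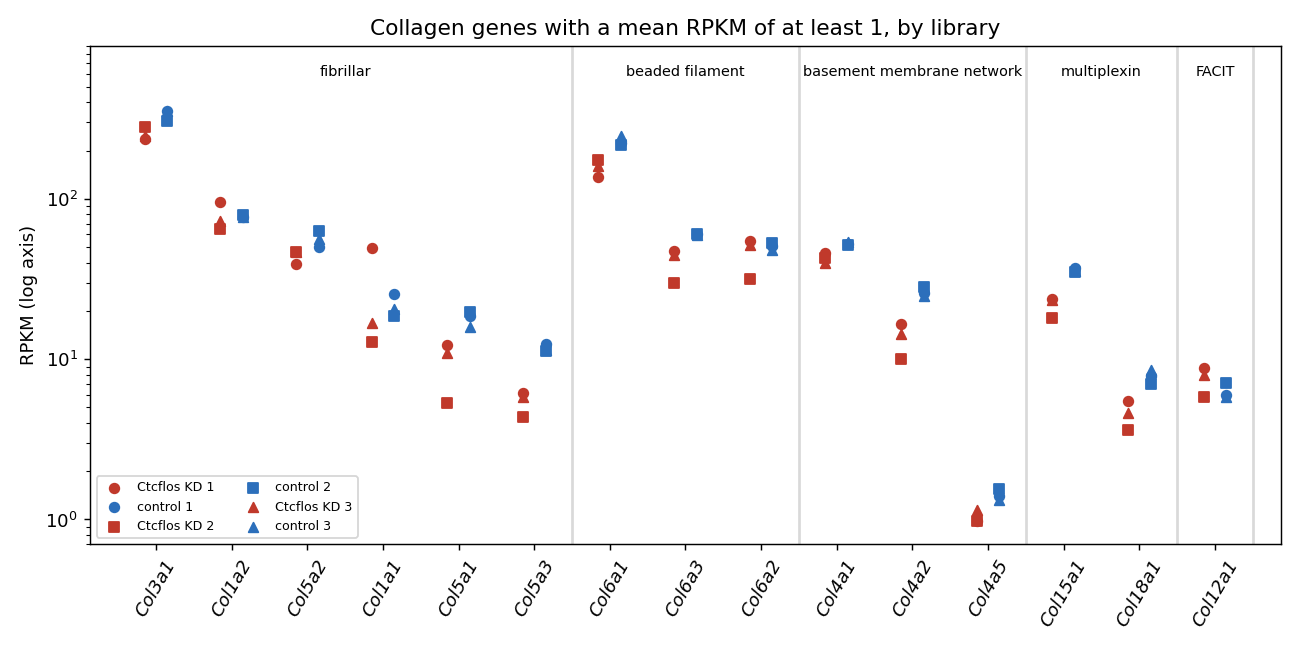
RPKM (log axis) of the 15 collagen genes past the filter in each *Ctcflos* KD library (red) and control library (blue), with the replicate number as symbol and the genes grouped by structural class. Red points lie below all blue points in 11 genes, among them both multiplexins, and *Col1a1* has its highest value in *Ctcflos* KD replicate 1 (49.3 RPKM).

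The fibrillar class had 11 genes, of which 6 passed the filter and 2 fell, both chains of type V collagen, the quantitatively minor fibrillar collagen that takes part in starting fibrils. *Col5a3*, whose chain is found in a restricted set of tissues, was at 6.15, 4.36 and 5.82 RPKM in *Ctcflos* KD and at 12.4, 11.2 and 11.5 RPKM in controls. The groups were far apart, with a mean at 46.5% of the control mean (log2 difference −0.99, SE 0.131, adjusted p = 0.00488). *Col5a1*, which encodes the chain common to most type V molecules, had 12.2, 5.31 and 10.9 RPKM against 18.6, 19.6 and 16.0 RPKM. Here *Ctcflos* KD replicate 2 lay well below the other libraries of its group, and the mean was at 52.3% of controls (−0.93, SE 0.259, adjusted p = 0.036). The third chain, *Col5a2*, had 44.1 ± 4.29 against 56.6 ± 6.42 RPKM, a difference of −0.35 that was not called (adjusted p = 0.0976) although no *Ctcflos* KD library reached a control.

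Type I and type III chains make up the bulk of interstitial fibers. *Col3a1* was the most abundant collagen gene, with 236, 281 and 246 RPKM in *Ctcflos* KD and 356, 306 and 356 RPKM in controls. The *Ctcflos* KD libraries were all lower, at 74.9% of the control mean, but the difference of −0.42 did not pass the threshold (adjusted p = 0.0611). *Col1a2* had 95.0, 64.7 and 72.8 RPKM against 77.5, 79.8 and 77.6 RPKM. Its controls lay within those of *Ctcflos* KD, and the means of 77.5 and 78.3 RPKM differed by far less than the spread (−0.03, SE 0.159, adjusted p = 0.894). *Col1a1*, given by library because of its spread, had 49.3, 12.8 and 16.9 RPKM against 25.5, 18.7 and 20.5 RPKM. *Ctcflos* KD replicate 1 was above all controls and the other 2 below them, so that the difference of 0.05 (SE 0.422, adjusted p = 0.942) turned to −0.51 (adjusted p = 0.105) without that library.

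The type VI chains form beaded filaments around cells and are abundant in fat. *Col6a1* was at 137, 175 and 161 RPKM in *Ctcflos* KD and at 222, 215 and 248 RPKM in controls. All *Ctcflos* KD libraries were lower, and the gene fell to 69.1% of the control mean (−0.54, SE 0.143, adjusted p = 0.0321). *Col6a3*, whose chain carries the C-terminal fragment known as endotrophin, had 47.4, 29.7 and 44.8 RPKM against 60.5, 60.2 and 59.2 RPKM. The controls differed by little, replicate 2 of *Ctcflos* KD was the lowest, and the difference of −0.58 fell just short of the threshold (adjusted p = 0.0507). *Col6a2*, the partner of *Col6a1* in the type VI monomer, overlapped between groups (46.2 ± 12.5 against 50.7 ± 2.46 RPKM, −0.17, adjusted p = 0.566). *Col6a4*, *Col6a5* and *Col6a6* were under the filter.

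Of the 6 type IV genes, *Col4a1*, *Col4a2* and *Col4a5* passed the filter. *Col4a1* and *Col4a2* encode the chains of the most widespread basement membrane collagen, which join as a pair of α1 chains with an α2 chain. *Col4a2* had 16.6, 10.1 and 14.4 RPKM in *Ctcflos* KD and 25.9, 28.05 and 24.9 RPKM in controls. It was lower in every *Ctcflos* KD library, at 52.1% of the control mean (−0.92, SE 0.175, adjusted p = 0.0124). *Col4a1* had 45.9, 43.0 and 39.8 RPKM against 52.1, 51.9 and 54.1 RPKM. It was also lower in every *Ctcflos* KD library, at 81.5% of controls, but was not called (−0.29, SE 0.115, adjusted p = 0.0993). The ratio of *Col4a1* to *Col4a2* RPKM was 2.76, 4.27 and 2.78 in *Ctcflos* KD and 2.01, 1.85 and 2.17 in controls, higher in all *Ctcflos* KD libraries by 0.67 on the log2 scale. The exact two-sided permutation test gave p = 0.1, the smallest that 3 libraries against 3 can give, and 0.7 after adjustment over 7 chain ratios. From RefSeq mRNA accessions alone the ratio was 4.32, 6.94 and 4.40 in *Ctcflos* KD and 3.24, 2.91 and 3.40 in controls. Its log2 difference was then 0.68. The level of the ratio thus depended on the accessions averaged and does not measure the numbers of chains. In the other 6 ratios, *Col1a1* to *Col1a2* and to *Col3a1*, *Col5a1* to *Col5a2*, *Col6a1* to *Col6a2*, *Col6a3* to *Col6a1* and *Col8a1* to *Col8a2*, the groups overlapped.

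*Col4a1* and *Col4a2* lie head to head on chromosome 8, and their RefSeq extents (GRCm38.p6) overlap by 85 bases. Their promoter windows, 250 bases before to 50 bases after the start in RefSeq, are shown because the pair shares this region and differed in the size of its change, together with that of *Col5a3*, the gene with the lowest adjusted p. The *Col4a1* window is chr8:11312777-11313076 on the minus strand, the *Col4a2* window chr8:11312555-11312854 on the plus strand, and the *Col5a3* window chr9:20815018-20815317 on the minus strand. Each is written 5′ to 3′ on the strand of its gene, with the letters CCAAT, or ATTGG where the motif is on the other strand, in capitals.
Col4a1: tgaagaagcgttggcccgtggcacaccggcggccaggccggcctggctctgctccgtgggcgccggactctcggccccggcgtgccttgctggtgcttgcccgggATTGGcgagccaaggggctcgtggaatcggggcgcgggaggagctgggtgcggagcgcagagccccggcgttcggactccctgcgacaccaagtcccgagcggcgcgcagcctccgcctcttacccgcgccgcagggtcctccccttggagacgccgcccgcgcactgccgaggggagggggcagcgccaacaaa
Col4a2: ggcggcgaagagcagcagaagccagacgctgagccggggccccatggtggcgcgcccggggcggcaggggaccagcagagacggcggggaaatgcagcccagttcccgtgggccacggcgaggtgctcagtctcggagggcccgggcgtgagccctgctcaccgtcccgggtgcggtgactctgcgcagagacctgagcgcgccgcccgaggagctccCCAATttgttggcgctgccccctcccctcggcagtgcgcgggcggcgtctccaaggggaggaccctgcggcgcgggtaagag
Col5a3: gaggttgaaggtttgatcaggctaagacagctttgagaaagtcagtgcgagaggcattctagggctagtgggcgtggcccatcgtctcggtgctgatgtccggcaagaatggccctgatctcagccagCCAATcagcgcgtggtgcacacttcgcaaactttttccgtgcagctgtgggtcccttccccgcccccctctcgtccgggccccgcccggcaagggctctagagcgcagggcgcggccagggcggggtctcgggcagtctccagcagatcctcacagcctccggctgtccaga
The *Col4a1* and *Col4a2* windows share 78 bases read on opposite strands, and the starts used for these windows are 21 bases apart. For *Col4a1* and *Col5a3* the start used for the window lies inside the RefSeq extent of the gene and not at its end. GC content was 74.0% for *Col4a1*, 73.7% for *Col4a2* and 63.3% for *Col5a3*. Each window holds the CCAAT pentamer once, beginning at position −145 for *Col4a1*, −32 for *Col4a2* and −122 for *Col5a3*, counted from the start. On either strand, CCAAT was in 37.4% of 32851 windows of the same length and in 13 of 38 windows of the 35 collagen genes that had one (34.2%). The letters GGGCGG, on either strand, were in 35.7% of all windows and in 60.5% of the collagen windows, and TATAAA in 13.6% and 13.2%. These matches describe letters and not binding.

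**Figure D2:**
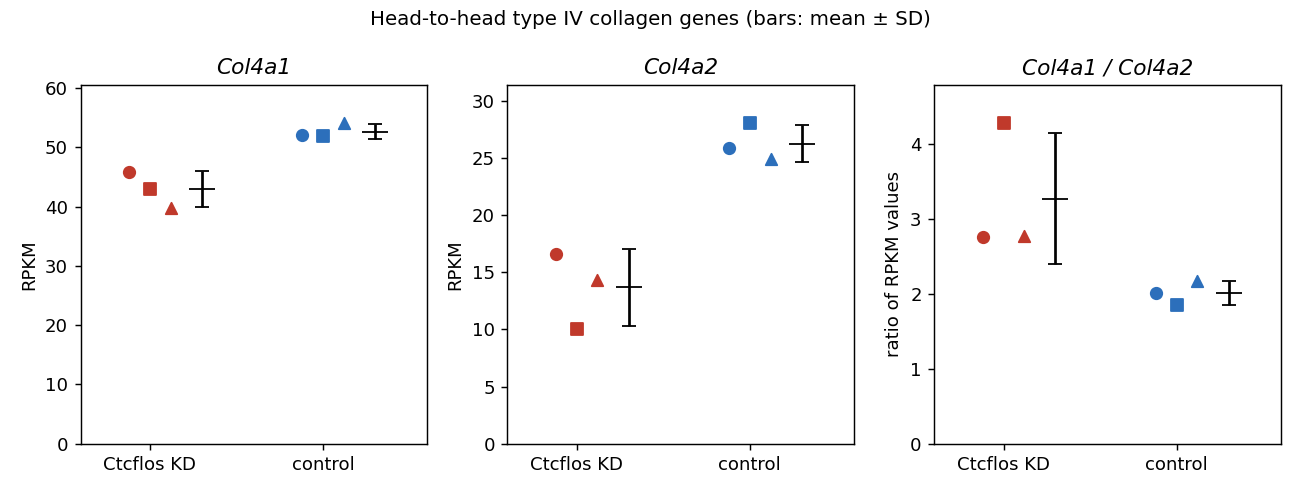
RPKM of *Col4a1* (left) and *Col4a2* (middle) and their ratio (right) in each *Ctcflos* KD (red) and control (blue) library, with mean ± SD in black (n = 3) and all axes from 0. Both genes are lower in every *Ctcflos* KD library, *Col4a2* by more, and the ratio lies between 2.76 and 4.27 in *Ctcflos* KD and between 1.85 and 2.17 in controls.

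The remaining type IV gene past the filter, *Col4a5*, encodes a chain of a more restricted network and was the member nearest to the filter, with 0.977, 0.973 and 1.15 RPKM in *Ctcflos* KD and 1.41, 1.54 and 1.33 RPKM in controls. It was lower in every *Ctcflos* KD library and not called (−0.26, adjusted p = 0.0714).

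Both multiplexins fell, the only structural class of which every gene was called. *Col15a1*, whose product links basement membranes to the fibers beneath, had 23.9, 18.0 and 23.3 RPKM in *Ctcflos* KD and 37.1, 35.1 and 35.3 RPKM in controls. All *Ctcflos* KD libraries were lower, at 60.6% of the control mean (−0.71, SE 0.136, adjusted p = 0.0128). *Col18a1*, the precursor of endostatin, had 5.46, 3.60 and 4.63 RPKM against 7.84, 6.96 and 8.54 RPKM. It too was lower throughout, at 58.7% of controls (−0.67, SE 0.143, adjusted p = 0.017). The multiplexins made up 3.46 ± 0.461% of the summed collagen RPKM in *Ctcflos* KD and 4.36 ± 0.0971% in controls, whereas the fibrillar class made up 55.1 ± 1.81% and 52.6 ± 0.96%.

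Of 9 FACIT genes in the table, only *Col12a1*, whose product binds type I fibrils, passed the filter. It had 8.75, 5.78 and 8.002 RPKM in *Ctcflos* KD and 5.98, 7.10 and 5.84 RPKM in controls. The groups overlapped, and the difference of 0.21 was the highest among the 15 genes and not called (adjusted p = 0.342). All 10 of its accessions past the filter had a positive log2 difference. None of the 3 hexagonal network genes, 4 transmembrane collagens and 3 others passed the filter.

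**Figure D3:**
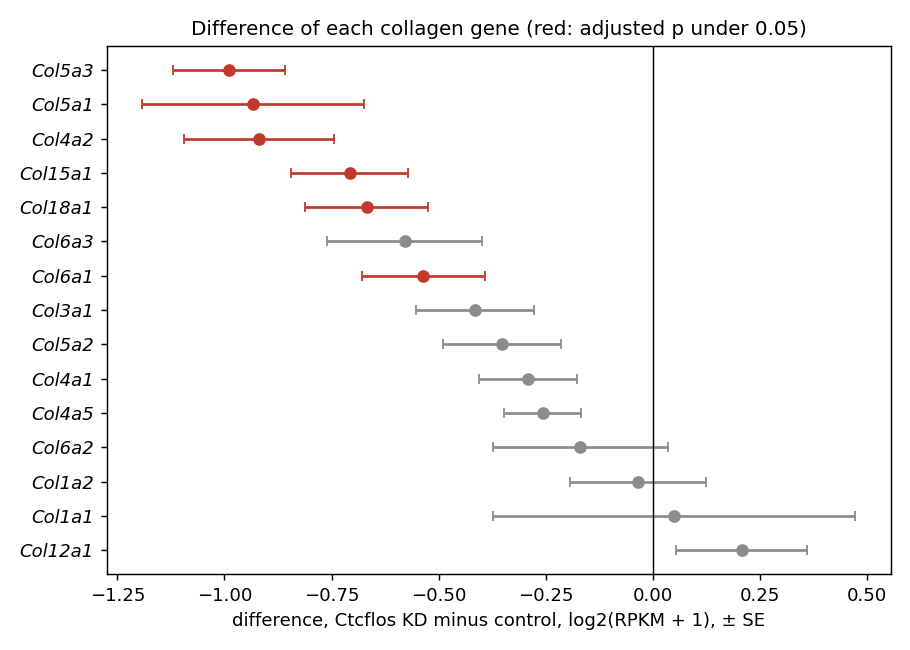
Difference between *Ctcflos* KD and control on the log2(RPKM + 1) scale for the 15 collagen genes past the filter, with ± SE from limma, in red where the adjusted p was under 0.05. The 6 called genes lie between −0.99 and −0.54, and *Col12a1* and *Col1a1* are the 2 genes above 0.

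The 29 genes under the filter were tested in limma without it, in which 0 of them passed an adjusted p of 0.05, against 0.584% of all genes. When genes at 0 in every library were left out of that fit, 0 passed, against 4.71% of all genes. From RefSeq mRNA accessions alone, *Col28a1* and *Col8a1* passed the filter. *Col28a1*, a gene of a collagen with von Willebrand factor A domains, was called lower there (0.873 ± 0.209 against 1.47 ± 0.298 RPKM, −0.40, adjusted p = 0.0436), where 16.3% of all genes were, and *Col8a1* was not (adjusted p = 0.266). Of the 29 genes, 17 were below 0.1 RPKM on average. *Col8a1*, the nearest to the filter from below and a gene of the hexagonal network, had 0.591, 0.505 and 0.994 RPKM against 0.80, 1.49 and 0.644 RPKM, which overlapped. In 8 of the 29, *Col16a1*, *Col28a1*, *Col27a1*, *Col23a1*, *Col24a1*, *Col4a3*, *Col4a6* and *Col25a1*, the *Ctcflos* KD libraries were all lower, against 9.01% of all genes under the filter that were not at 0 in every library. In 4, *Col11a2*, *Col4a4*, *Col7a1* and *Col19a1*, they were all higher, against 11.8%. *Col11a2*, a chain of the cartilage-type fibrils, was at 0.201, 0.201 and 0.0777 RPKM against 0.0293, 0.0542 and 0.0395 RPKM. At the recovered depth, 1 read on 5 kb gives 0.00252 to 0.00329 RPKM. *Col10a1*, the collagen of hypertrophic cartilage, had 0.609, 0.247 and 0.683 RPKM against 0.303, 0.258 and 0.224 RPKM, which overlapped.

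The *Ctcflos* KD libraries differed from each other more than the controls did. The SD on the log2(RPKM + 1) scale was larger in *Ctcflos* KD for 14 of the 15 genes, as for 72.7% of all genes tested, with a median of 0.247 against 0.0845 in controls. Over all genes, the medians were 0.169 and 0.102. Replicate 2 was the lowest *Ctcflos* KD library in 11 of the 15 genes, and replicate 1 the highest in 11. *Col3a1*, *Col5a2* and *Col6a1* ran the other way, with replicate 1 the lowest and replicate 2 the highest. Without replicate 2, 6 genes were called, and without replicate 1 all but *Col6a1*, when 9.31% and 10.1% of all genes were called. With control replicate 1 or control replicate 3 left out, *Col5a3* alone was called, when 3.6% and 3.16% of all genes were called. Without control replicate 2, *Col5a1* and *Col6a1* were lost, when 13.5% of all genes were called.

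**Figure D4:**
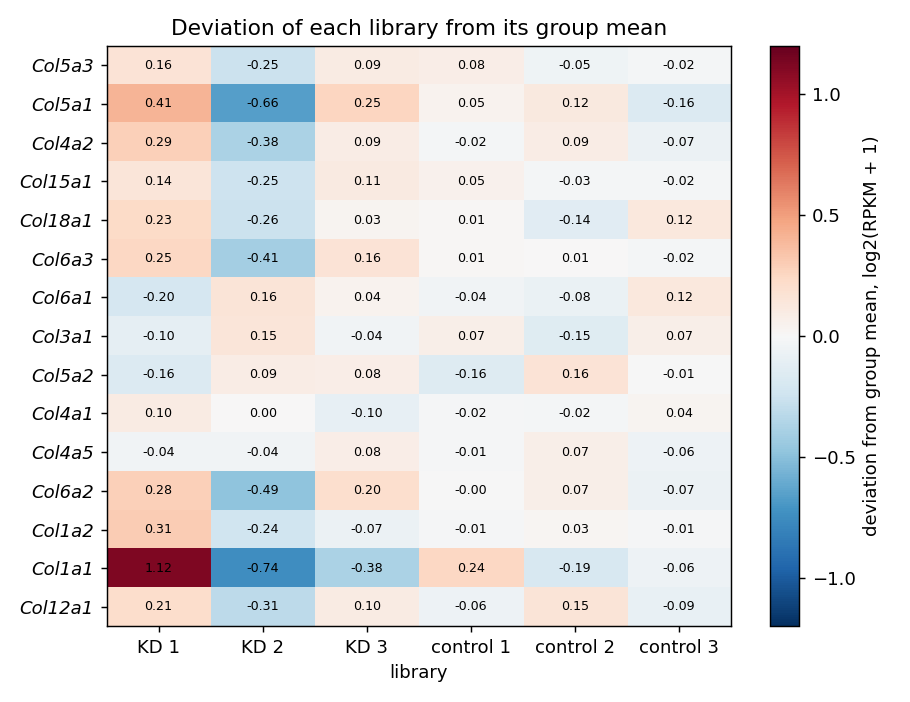
Deviation of each library from the mean of its own group on the log2(RPKM + 1) scale (blue lower, red higher) for the 15 collagen genes, ordered by their difference between groups. Replicate 2 of *Ctcflos* KD is mostly blue and replicate 1 mostly red, with the reverse in *Col6a1*, *Col3a1* and *Col5a2*. Near the group mean lie replicate 2 in *Col4a1* and replicates 1 and 2 in *Col4a5*, and control columns are pale.

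Usage of the accessions of a gene, tested with limma diffSplice because these libraries were sequenced for alternative splicing, changed in 0 collagen genes at an adjusted p of 0.05, against 67 of 10027 genes (0.668%). Without the filter on low values, *Col5a2* was called (adjusted p = 0.00611). With the filter, its p from limma diffSplice was 0.0907 before adjustment. The share of all genes called for usage without the filter is not given here, so that this call cannot be set beside it. Of 115 accessions of the 15 genes past the filter, 92 were lower in *Ctcflos* KD on average and 23 higher. All accessions of a gene had the same direction except those of *Col1a2* and *Col4a1*, and since they share reads they do not count as separate evidence.

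Gene length and position varied widely within the family. The 8 genes that span at least 100 kb in RefSeq had a median log2 difference of −0.51, with 4 called, and the 7 shorter genes one of −0.42, with 2 called. Across the 15 genes the rank correlation of span with log2 difference was −0.264 and that of mean RPKM with log2 difference 0.139, both given as descriptions over genes that share the same 6 libraries. *Col3a1* and *Col5a2*, which lie tail to tail on chromosome 1 with 24.6 kb between them, differed by −0.42 and −0.35. *Col6a1*, *Col6a2* and *Col18a1* lie on the same strand of chromosome 10, and *Col6a2*, 85.2 kb from *Col6a1*, was the one not called.

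Genes that modify, secrete, cleave, cross-link and bind collagen were examined as 5 lists with 52 genes, of which 38 passed the filter, 12 fell and 0 rose, beside 12.4% of all genes called lower and 11.5% higher. Their median log2 difference was −0.23. None of the 12 had a *Ctcflos* KD library within the range of the controls, which largely follows from their being called. The count fell to 6 without *Ctcflos* KD replicate 2, when 9.31% of all genes were called in either direction. It fell to 4, 7 and 3 without control replicates 1, 2 and 3, when 3.6%, 13.5% and 3.16% of all genes were called. Without *Ctcflos* KD replicate 3, 11 genes were lower and 2, *Furin* and *Loxl4*, higher, when 41.1% of all genes were called. Without the filter, 2 were lower, *Sec24d* and *Mia3*, and 1 was higher, *Mia2* (0.179, 0.196 and 0.172 RPKM against 0.0315, 0 and 0.0488 RPKM). With genes at 0 in every library left out of that fit, 6 were lower and *Mia2* was higher. In the list of hydroxylation and chaperones, 5 of 16 genes past the filter fell. *Serpinh1*, the collagen chaperone HSP47, had 309, 381 and 351 RPKM in *Ctcflos* KD and 430, 504 and 506 RPKM in controls (−0.47, adjusted p = 0.0478). This call was lost whichever library was left out, and without the filter. *Lepre1*, a prolyl 3-hydroxylase, was at 2.98 ± 0.0857 against 5.28 ± 0.556 RPKM (−0.66, adjusted p = 0.00717). The lysyl hydroxylase *Plod2* (−0.73), the prolyl 4-hydroxylase chain *P4ha3* (−0.33) and the peptidyl-prolyl isomerase *Fkbp14* (−0.50) were lower as well. Over the libraries left out, *Lepre1* was called each time and *Plod2* only without control replicate 2. *P4ha3* and *Fkbp14* were called only without *Ctcflos* KD replicate 3. *P4hb*, the β subunit of prolyl 4-hydroxylase, overlapped (149 ± 22.6 against 171 ± 12.1 RPKM, adjusted p = 0.336).

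In the secretion list, 2 of 9 genes past the filter fell, both of the inner COPII coat, beside 12.4% of all genes called lower. *Sec24d* was at 1.98, 1.75 and 2.25 RPKM in *Ctcflos* KD and at 6.17, 4.90 and 5.02 RPKM in controls. It had the largest decrease of the 38 genes tested, to 37.1% of the control mean (−1.09, SE 0.115, adjusted p = 0.00266). Its partner *Sec23a* was at 70.7% of controls (−0.44, adjusted p = 0.0293), while *Sar1a*, the small GTPase that starts the coat, and *Sec13* of the outer coat overlapped between groups (adjusted p = 0.266 and 0.691).

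In the list of propeptide cleavage, 2 of 4 genes past the filter fell, beside 12.4% of all genes called lower. *Adamts2*, the N-proteinase of fibrillar procollagens, was at 2.22, 1.55 and 2.17 RPKM against 4.24, 4.09 and 4.30 RPKM, or 47.0% of the control mean (−0.81, adjusted p = 0.00558). *Bmp1*, a C-proteinase, was at 69.6% of controls (−0.43, adjusted p = 0.031). The enhancer of C-proteinase *Pcolce* overlapped (adjusted p = 0.545). *Furin* was higher in every *Ctcflos* KD library and not called (3.32 ± 1.31 against 1.93 ± 0.136 RPKM, 0.52, adjusted p = 0.0842).

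The 5 lysyl oxidase genes, which cross-link collagen and elastin, did not move alike. *Loxl2* (5.73 ± 0.595 against 9.52 ± 1.24 RPKM, −0.64, adjusted p = 0.013) and *Loxl3* (6.01 ± 0.504 against 9.99 ± 0.837 RPKM, −0.65, adjusted p = 0.00899) fell. *Lox*, the most abundant of them, had 150, 97.1 and 107 RPKM in *Ctcflos* KD and 85.4, 88.2 and 72.3 RPKM in controls, higher in every *Ctcflos* KD library and not called (0.50, adjusted p = 0.0829). Among receptors, 1 of 4 genes past the filter fell, beside 12.4% of all genes called lower. This was the collagen-activated tyrosine kinase *Ddr2*, with 6.73, 5.69 and 8.18 RPKM against 10.96, 11.7 and 10.9 RPKM (−0.64, adjusted p = 0.0154). *Itgb1*, the β subunit of the collagen-binding integrins, overlapped (45.5 ± 3.77 against 53.8 ± 5.14 RPKM, adjusted p = 0.211).

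**Figure D5:**
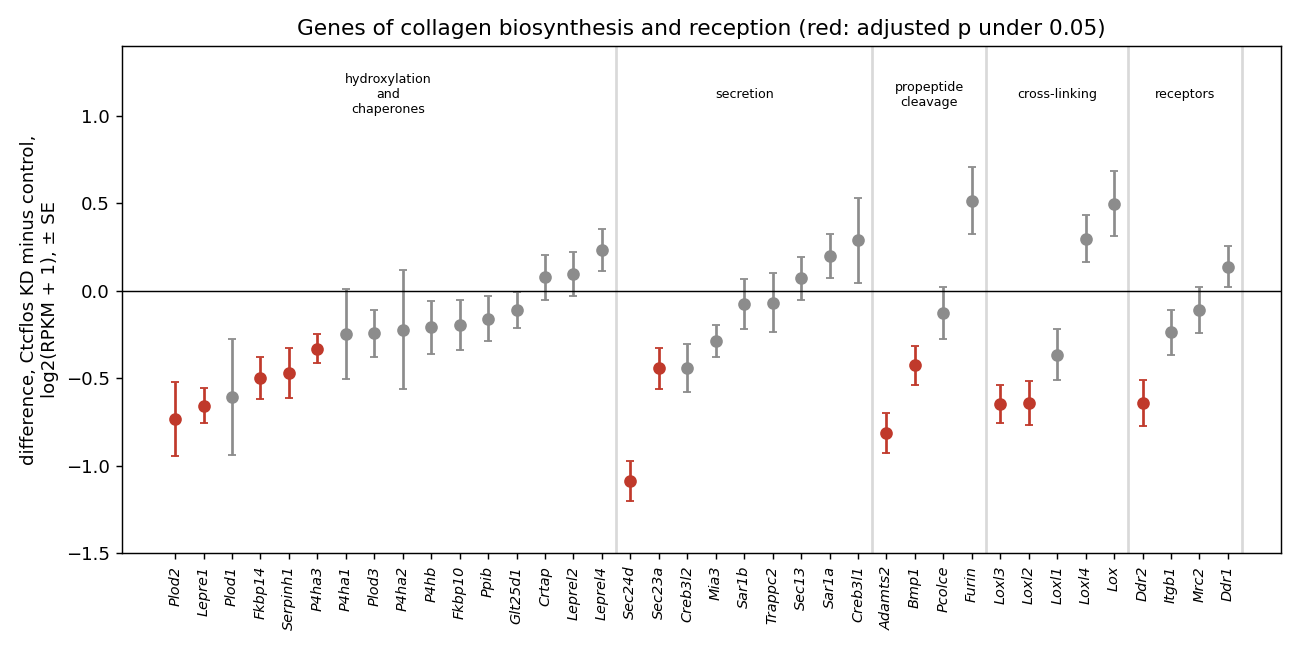
Difference between *Ctcflos* KD and control on the log2(RPKM + 1) scale, with ± SE from limma, for the 38 genes past the filter in 5 lists of collagen biosynthesis and reception, in red where the adjusted p was under 0.05. All 12 red points are below 0, with *Sec24d* the lowest at −1.09, and *Furin* (0.52) and *Lox* (0.50) are the highest and not called.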

How the data were processed

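Total RNA of 3 *Ctcflos* KD and 3 control libraries was sequenced after stranded total RNA library preparation, in 1 pool. The authors deposited RPKM values, with decimal commas, per transcript accession in 168326 lines. How these values were made is not given in the sources used here (for their splice analysis, the authors state STAR, GRCm38 and Gencode vM21). Overlapping accessions share reads, and strand use in counting is not stated. After 305 exact repeats were removed, RPKM was averaged per symbol. Genes averaging 1 RPKM or more were tested with limma-trend on log2(RPKM + 1), a scale that understates changes of low genes, and adjusted by Benjamini-Hochberg. Usage was tested with limma diffSplice (Simes), and chain ratios with exact permutation tests. Replicate values are mean ± SD (n = 3). The methods were tested on simulated data.

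Depth was recovered from low RPKM values of Ensembl transcripts, with 93.9% to 94.7% of values used within 0.05 of whole reads. Gene spans and promoters come from RefSeq (GRCm38.p6), in which 44 and 35 of the 44 genes were found. The members and lists (structural classes, collagen processing, cell type markers, collagen-like genes) were chosen with earlier results of these data known. Values by library are given for called members, the 2 most abundant members past the filter per class, those nearest to the filter, and a few others named after their values were seen (*Col1a1*, *Col11a2*, *Col10a1*, *Col28a1*). Of processing genes, called genes without overlap and 1 or 2 uncalled genes of highest RPKM per list are named, besides *Mia2*, *Mia3* and *Loxl4*, called in an alternative. Alternatives were a pseudocount of 0.1, no filter, median of ratios scaling, the replicate number as a block, RefSeq accessions alone, repeats kept, limma without trend, relative usage, and each library left out. A fit without the filter that leaves out genes at 0 in every library was added after seeing that 0 collagen genes were called without the filter. R 4.3.3, limma 3.58.1, data.table (version 1.17.8) and Python 3.11.15 with pandas, numpy and scipy were used.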

Additional observations from a re-analysis of the deposited data

How the results depend on the processing

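The 6 collagen genes called lower numbered 0 without the filter, 4 when replicate numbers entered as a block and 6 to 8 under the other alternatives that kept all libraries and the filter, and 1 to 8 over the libraries left out, and 0 were higher in any. *Col5a3* was called in 13 of 14 alternatives, the exception being no filter (adjusted p = 0.0618). Median of ratios scaling and limma without trend added *Col3a1* and *Col6a3*, RefSeq accessions alone *Col28a1* and *Col6a3*, and leaving out *Ctcflos* KD replicate 3 *Col4a5* and *Col6a3*. Over the libraries left out, 369 to 4810 of all genes were called (2803 with all libraries), 3 to 13 processing genes (12 with all libraries), and the difference of *Ctcflos* ranged from −0.72 to −0.63 with adjusted p from 0.0149 to 0.169. With a pseudocount of 0.1 it was −2.01 (adjusted p = 0.0625). Without the filter, 304 of all genes and 3 processing genes were called, and 1 collagen gene changed in usage. When the 13754 genes at 0 in every library were left out of that fit, an alternative chosen after seeing the data, 4 collagen genes, 1807 of all genes and 7 processing genes were called, 1 collagen gene changed in usage, and *Ctcflos* had an adjusted p of 0.0254. When replicate numbers entered as a block, 4 collagen genes (*Col5a1* and *Col6a1* lost), 1671 of all genes and 7 processing genes were called, and *Ctcflos* (−0.66) had an adjusted p of 0.246. Deviations of same-numbered libraries correlated at 0.287, −0.288 and −0.418, which gave no sign of a pairing by number. Whether libraries of different numbers belong together was not tested, and the main fit treats all as unpaired. Signs turned in uncalled values. Over the libraries left out, the difference of *Col1a2* ranged from −0.19 to 0.0857, with 0.0018 without *Ctcflos* KD replicate 3, that of *Col6a2* from −0.31 to 0.0742, and that of *Col1a1* from −0.51 to 0.42, with −0.04 without control replicate 2. The log2 difference of the ratio of *Col1a1* to *Col1a2* ranged from −0.35 to 0.35, with −0.04 without control replicate 2, that of *Col1a1* to *Col3a1* from −0.17 to 0.92, that of *Col6a3* to *Col6a1* from −0.28 to 0.24, and that of *Col8a1* to *Col8a2* from −0.26 to 0.21, with −0.18 without *Ctcflos* KD replicate 3 and −0.23 from RefSeq accessions. The cause was not tested. The 17 collagen genes below 0.1 RPKM rest on the fewest reads, which limits their precision.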

Other observations

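Genes outside the collagen family that encode collagen-like stretches were examined as 3 lists with 31 genes in the table, of which 8 passed the filter, 1 fell and 0 rose, beside 12.4% of all genes called lower. The gene that fell was *Colec12*, a scavenger receptor with a collagen-like stalk and a lectin domain. It was at 4.60, 5.85 and 7.01 RPKM in *Ctcflos* KD and at 19.8, 25.6 and 23.6 RPKM in controls. The groups did not overlap, and the mean was at 25.3% of controls (log2 difference −1.82, SE 0.159, adjusted p = 0.00203), a decrease beyond that of any collagen gene past the filter. *Adipoq*, the adipokine adiponectin with a collagen-like domain, was lower in every *Ctcflos* KD library and not called (826 ± 208 against 1187 ± 53.0 RPKM, −0.55, adjusted p = 0.0687). The elastic fiber-associated genes *Emilin1* (0.18, adjusted p = 0.466) and *Emilin2* (−0.18, adjusted p = 0.332) and the adiponectin paralogs *C1qtnf1*, *C1qtnf5* and *C1qtnf6* (adjusted p = 0.262, 0.48 and 0.203) did not pass the threshold. *C1qb*, a complement gene of macrophages, was high in 2 libraries, *Ctcflos* KD replicate 3 (2.70 RPKM) and control replicate 2 (2.66 RPKM), and at most 0.296 RPKM in the other 4.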
